A study of Mus musculus with 8 samples.

Results

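The genes described here are 33 members of the NF-kB pathway, taken by symbol from the 32285 genes counted by single-cell RNA sequencing of synovium, the membrane that lines joints, from mouse ankles and wrists. They comprised 12 inhibitors and feedback regulators, 5 Rel subunits, 10 signalling proteins and 6 targets. Counts of unique molecular identifiers (UMIs) were summed per animal, the replicate, over the cells of an annotation deposited by the authors, either over 5 fibroblast classes together (lining, Mmp3+, Il6+, Cd200+ and Pi16+) or within each of 7 classes (these and chondrocytes and osteoblasts). All 33 members passed the filter on low counts in the summed fibroblasts.

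The animals were 8 to 10 weeks old and fell into 5 groups. Untreated arthritic animals (n = 3) were hTNFtg197 mice, which carry a transgene for human TNF, and were treated with Il23mc over 9 days; the strain is B6-Tg(TNF)197Gkl. TNF-inhibited animals (n = 3) had the same transgene and Il23mc and were also given an antibody against human TNF, and IL-17-inhibited animals (n = 3) were likewise arthritic and were given an antibody against mouse IL-17A. FAP-sorted animals (n = 5) were arthritic animals with no inhibitor whose viable CD45-negative cells were enriched by sorting on 2 surface markers, FAP and Pdpn. Healthy animals (n = 3) were wild types that received nothing. The other groups were taken as viable CD45-negative cells without enrichment for FAP and Pdpn. All arthritic groups share both the transgene and Il23mc, so the contributions of the 2 cannot be told apart. Each inhibitor was given to the animals of 1 library, with 1 healthy animal in each unsorted library, so inhibitor and library can be separated only through single healthy animals.

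NF-kB is a family of dimeric transcription factors that inhibitor proteins of the IkB family hold in the cytoplasm. Receptors for TNF, IL-1, IL-17 and microbial products recruit TRAF adaptors, ubiquitin ligases and kinases, which lead to degradation of the inhibitor and entry of the dimers into the nucleus. The dimers then induce inflammatory genes and also their own inhibitors, so that many regulators of the pathway are at the same time its products. In synovial fibroblasts the pathway is known for driving adhesion molecules, cytokines and matrix-degrading enzymes in arthritis.

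Promoters of 5 inhibitors and feedback regulators are shown because these genes differed between untreated and healthy fibroblasts and hold the sequence to which the dimers bind. Each covers 250 bases before to 50 bases after the transcription start, from RefSeq on GRCm38.p6, written 5′ to 3′ along the gene, with matches to the kB consensus of 10 bases in capitals. Tnip3 was read at chr6:65590148-65590447 (forward strand), Nfkbie at chr17:45555450-45555749 (forward), Tnip1 at chr11:54962891-54963190 (reverse), Tnfaip3 at chr10:19015361-19015660 (reverse) and Bcl3 at chr7:19822706-19823005 (reverse). The starts used for Tnip3, Tnfaip3 and Bcl3 lie inside the genes as annotated, and so do the kB matches shown for them.
Tnip3: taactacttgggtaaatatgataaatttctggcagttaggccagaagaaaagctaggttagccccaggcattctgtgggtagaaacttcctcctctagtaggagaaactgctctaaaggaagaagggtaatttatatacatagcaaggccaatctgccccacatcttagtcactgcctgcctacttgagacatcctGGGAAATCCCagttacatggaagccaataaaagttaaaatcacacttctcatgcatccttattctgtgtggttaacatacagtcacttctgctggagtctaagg
Nfkbie: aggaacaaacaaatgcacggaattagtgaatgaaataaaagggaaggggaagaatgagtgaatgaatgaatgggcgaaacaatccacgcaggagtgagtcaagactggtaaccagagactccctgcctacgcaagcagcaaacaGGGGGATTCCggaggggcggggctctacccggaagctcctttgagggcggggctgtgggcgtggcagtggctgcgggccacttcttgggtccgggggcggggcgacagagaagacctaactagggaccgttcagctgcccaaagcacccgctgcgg
Tnip1: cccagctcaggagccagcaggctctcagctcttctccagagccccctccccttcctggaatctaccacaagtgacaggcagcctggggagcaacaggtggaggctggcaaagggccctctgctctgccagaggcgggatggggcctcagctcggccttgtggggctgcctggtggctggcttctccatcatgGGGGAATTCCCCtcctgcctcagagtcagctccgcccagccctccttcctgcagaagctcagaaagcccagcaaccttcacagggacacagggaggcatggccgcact
Tnfaip3: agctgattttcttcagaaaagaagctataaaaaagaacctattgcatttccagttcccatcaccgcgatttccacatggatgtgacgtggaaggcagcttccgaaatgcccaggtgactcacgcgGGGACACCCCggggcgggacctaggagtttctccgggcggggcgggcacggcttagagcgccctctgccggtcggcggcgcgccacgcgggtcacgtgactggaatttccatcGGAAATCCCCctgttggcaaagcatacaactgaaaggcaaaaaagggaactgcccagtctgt
Bcl3: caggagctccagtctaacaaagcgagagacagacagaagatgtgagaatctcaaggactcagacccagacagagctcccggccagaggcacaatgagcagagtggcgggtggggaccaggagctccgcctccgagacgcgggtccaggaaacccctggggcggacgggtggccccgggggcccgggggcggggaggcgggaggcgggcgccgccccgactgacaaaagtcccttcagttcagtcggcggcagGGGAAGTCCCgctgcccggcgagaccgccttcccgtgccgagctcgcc
The kB consensus was searched on both strands, and overlapping matches count as matches of the same gene. It occurred in 12 of the 26 members with a promoter in the table (46.2%), against 1480 of all 32851 promoters (4.51%). By role, it occurred in 7 of 11 inhibitors and feedback regulators, 2 of 3 Rel subunits, 2 of 7 signalling genes and 1 of 5 targets. The matches of Nfkbie, Tnip1 and Tnip3 began 106, 58 and 54 bases before the start. Tnfaip3 had matches at 125 and 12 bases before it, and that of Bcl3 began 2 bases after it. Nfkbiz, Nfkb1, Relb, Cd40, Ripk2, Map3k8 and Vcam1 were not in the table. A match describes the letters of the promoter, not binding, and its absence says only that these letters are not in the window.

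Fibroblast depth was 4508588 to 36786390 UMIs per animal, lowest in the healthy animals. The makeup of the summed fibroblasts differed between groups. Pi16+ cells were 0.933% to 1.4% of the fibroblasts of untreated animals and 41.9% to 44.2% of those of healthy ones, and Mmp3+ cells were 36.1% to 43.0% in untreated and 2.14% to 5.81% in healthy animals. A difference in the sums can therefore come from more or fewer cells of a class or from more or less RNA per cell, which the sums do not tell apart, and values within classes are given beside them. Most class markers were highest in their own class, but Cd200 reached 357 CPM (counts-per-million units) in osteoblasts and 214 CPM in Cd200+ cells, Thbs4 was highest in chondrocytes, and the cartilage gene Acan averaged 52.4 CPM in both chondrocytes and osteoblasts, so the chondrocyte class is described by its annotation name only. Markers of other cells also moved with the groups. Summed leukocyte markers (10 genes) were 23.6 to 27 CPM in untreated and 4.96 to 6.64 CPM in healthy animals, with Cd3e at 0 in all untreated and Ptprc at 0 in all healthy animals. Neutrophil markers other than Lcn2 (7 genes) were 44.2 to 55.1 CPM in untreated and 15.6 to 17.1 CPM in healthy animals, with Ly6g at 0 in both. Keratinocyte markers (7 genes) were 33.2 to 36.2 CPM in untreated and 126 to 339 CPM in healthy animals, and all 7 were lower in untreated animals. Mural markers (8 genes) were 115 to 120 and 151 to 222 CPM in untreated and healthy animals, endothelial markers (10 genes) 14.7 to 19.6 and 26.5 to 40.9 CPM, and muscle markers (8 genes) 212 to 294 and 94.9 to 298 CPM, with none at 0. The part of these cells in the results was not tested.

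The first comparison asks how the pathway differs between arthritic joints and healthy ones. Of the 33 members, 9 were higher and 9 lower in untreated than in healthy fibroblasts (edgeR, adjusted p under 0.05), against 14.4% higher and 14.3% lower of all 14348 genes tested. The median log2 fold change was 0.04 over the members and 0.01 over all genes. Among those higher were the A20 gene Tnfaip3, its partners Tnip1 and Tnip3, the TRAF adaptors Traf1 and Traf2, and Vcam1. The related Tnip2 did not pass (log2 fold change −0.19, adjusted p = 0.214). Among those lower were 3 Rel subunits, the kinases Map3k8 and Ripk2, and Icam1. Within the Il6+ class alone, which held 396 to 1028 cells per untreated and 152 to 287 per healthy animal, 4 of 31 members passed (6.91% of all genes tested there), and those were Icam1, Rela and Nfkb2, lower, and Nfkbie, higher. Where groups are said not to overlap, this describes values of members mostly chosen by their calls. The share of all genes without overlap is not given, so it is no further test.

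Among the inhibitors and feedback regulators, 4 of 12 rose, 1 fell and 7 did not pass. Tnip3, whose protein binds the A20 enzyme and restrains TNF and Toll-like receptor signalling, was at 4.38, 2.22 and 3.77 CPM in untreated fibroblasts, against 0.116, 0.160 and 0 CPM in healthy ones. The groups did not overlap, and the healthy animals held 2 UMIs in all against 255 in the untreated ones. The ratio of the summed rates was 28.0 with a 95% counting interval of 7.66 to 232 (edgeR adjusted p = 0.000129). Of the 255 UMIs in untreated animals, 239 came from Mmp3+ cells, a class scarce in healthy animals, whose Mmp3+ cells held 1. Within Mmp3+ cells the ratio was 2.99 with an interval of 0.531 to 118, and the difference did not pass (log2 fold change 2.07).

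Nfkbie, which encodes the inhibitor IkB epsilon, was at 42.9, 43.5 and 48.2 CPM in untreated fibroblasts, against 26.6, 19.7 and 25.3 CPM in healthy ones. All 3 untreated animals lay above all 3 healthy ones, with a log2 fold change of 0.92 ± 0.16 (SE, adjusted p = 0.000985). The difference was of similar size in Il6+ cells alone, at 0.80 ± 0.20 (adjusted p = 0.0264), and its sign was positive in each of the 5 fibroblast classes (0.60 to 0.99). With library as a term of the fit 12 of the 18 members passed, and Nfkbie (adjusted p = 0.0509), Rela (0.130), Nfkb2 (0.215), Tnfaip3 (0.234), Ripk2 (0.241) and Tnfaip2 (0.295) did not.

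Tnip1, a further partner of A20, was at 83.0, 89.9 and 84.8 CPM in untreated fibroblasts, against 51.1, 48.7 and 58.3 CPM in healthy ones (log2 fold change 0.72 ± 0.13, adjusted p = 0.000937). Tnfaip3, which encodes A20 itself, an enzyme that edits ubiquitin chains on receptor complexes, was at 267, 259 and 260 CPM in untreated fibroblasts, against 205, 206 and 179 CPM in healthy ones (0.42 ± 0.13, adjusted p = 0.0253). Neither group of values overlapped the other for either gene. Tnfaip3 lost its call without any 1 of 4 of the 6 animals (highest adjusted p = 0.0912), and both genes lost it in Il6+ cells alone, at 0.28 for Tnip1 (adjusted p = 0.432) and 0.05 for Tnfaip3 (adjusted p = 0.890).

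Bcl3, an atypical IkB protein that acts in the nucleus with p50 and p52 dimers, was the inhibitor that fell. It was at 45.0, 49.5 and 54.4 CPM in untreated fibroblasts, against 94.9, 92.4 and 85.8 CPM in healthy ones, with no overlap (log2 fold change −0.87 ± 0.11, adjusted p = 8.33e-05). In Il6+ cells alone it was −0.36 (adjusted p = 0.158). Nfkbia, which encodes IkB alpha, the prototype inhibitor and a feedback product of the pathway, was at 1279, 1198 and 1169 CPM in untreated fibroblasts, against 1110, 1154 and 1117 CPM in healthy ones. The untreated values were all above the healthy ones, but the difference did not pass (adjusted p = 0.355). Over all 9 arthritic animals of the unsorted libraries, with or without an inhibitor, against the 3 healthy ones, with library as a term, Nfkbia was higher by 0.24 ± 0.07 on the log2 scale (adjusted p = 0.0175), and 20 members passed, 12 higher and 8 lower (20.1% of all genes in each direction). Traf3, an adaptor of the non-canonical branch (0.35 ± 0.10, adjusted p = 0.0166), and Ikbke (0.57 ± 0.21, 0.0467) were higher and Nfkb1 lower (−0.52 ± 0.13, 0.00592) in that comparison, whereas Ripk2 and Tnfaip2 did not pass it. Ikbke and Rela lost their calls without any 1 of 8 of the 12 animals (highest adjusted p 0.235 and 0.237), Nfkbia without the healthy animal of either inhibitor library (0.107), Traf3 without that of the IL-17-inhibited library (0.131) and Nfkb2 without that of the TNF-inhibited library (0.0659). With each group set against healthy animals, Nfkb1 was at −0.23 (edgeR adjusted p = 0.388) in untreated animals. It was at −0.68 (0.0119) in TNF-inhibited and −0.73 (0.00887) in IL-17-inhibited animals. Nfkbia, Traf3 and Ikbke also passed against healthy animals in an inhibitor group and not in the untreated group.

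Of the 5 Rel subunits, 3 were lower and none higher in untreated than in healthy fibroblasts. Rela, which encodes the transactivating subunit p65, was at 106, 103 and 104 CPM in untreated fibroblasts, against 134, 140 and 144 CPM in healthy ones (log2 fold change −0.41 ± 0.10, adjusted p = 0.00732). Rel, which encodes c-Rel, was at 65.8, 60.2 and 65.5 CPM in untreated and 90.5, 78.1 and 80.7 CPM in healthy fibroblasts (−0.38 ± 0.10, adjusted p = 0.0124). Nfkb2, the precursor of p52 in the non-canonical branch, was at 69.7, 59.7 and 61.5 CPM in untreated and 80.2, 83.1 and 82.2 CPM in healthy fibroblasts (−0.36 ± 0.11, adjusted p = 0.0261). The groups did not overlap for any of the 3 genes. In Il6+ cells alone Rela fell by 0.62 on the log2 scale (adjusted p = 0.00770) and Nfkb2 by 0.59 (adjusted p = 0.0113). The calls in the summed fibroblasts were not equally stable, since Rel lost its call without either of 2 animals (highest adjusted p = 0.0626) and Nfkb2 without any 1 of 5 of the 6 (0.0957). Nfkb1, the precursor of p50, and Relb, the non-canonical transactivator, did not pass.

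Of the 10 signalling genes, 4 rose and 2 fell. Traf1, an adaptor of TNF receptors that NF-kB itself induces, was at 17.4, 14.2 and 16.8 CPM in untreated fibroblasts, against 2.68, 5.60 and 3.70 CPM in healthy ones. Every untreated animal was above every healthy one, and the log2 fold change was 2.04 ± 0.22 (adjusted p = 1.57e-05). Birc2, a ubiquitin ligase of the TNF receptor complex, rose by 0.66 ± 0.12 (adjusted p = 0.000909), Traf2, the adaptor that recruits it, by 0.69 ± 0.15 (0.00354), and Tank, an adaptor of the IKK-related kinases, by 0.60 ± 0.12 (0.00240). Map3k8, the kinase TPL2 that acts towards ERK, fell by 0.81 ± 0.14 (0.000870), and Ripk2, the kinase of NOD receptors, fell by 0.74 ± 0.20 (0.0117). None of these 6 passed in Il6+ cells alone, where Traf1 was at 0.48 (adjusted p = 0.622). Cd40, Traf3, Birc3 and Ikbke did not pass, and Cd40 was near the floor of detection, at 0.155 to 1.36 CPM over all 17 animals.

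The targets moved in both directions. Vcam1, an adhesion molecule for leukocytes, was at 452, 386 and 435 CPM in untreated fibroblasts, against 193, 254 and 230 CPM in healthy ones (log2 fold change 0.92 ± 0.13, adjusted p = 0.000216). Icam1, another such adhesion molecule, was at 253, 262 and 267 CPM in untreated fibroblasts, against 528, 603 and 559 CPM in healthy ones (−1.10 ± 0.16, adjusted p = 0.000170). The 2 adhesion molecules thus lay on opposite sides of the healthy animals with no overlap between groups. Icam1 held its direction and its call under every alternative computed for it, with a highest adjusted p of 0.0142, and Vcam1 under each except in Il6+ cells alone (0.15, adjusted p = 0.658). Gadd45b, a stress-response gene that restrains JNK signalling, was at 191, 191 and 202 CPM in untreated and 356, 338 and 301 CPM in healthy fibroblasts (−0.76 ± 0.09, adjusted p = 2.65e-05). Tnfaip2, a gene named for its induction by TNF, fell by 0.70 ± 0.21 (adjusted p = 0.0254), a call lost without any 1 of 4 of the 6 animals (highest adjusted p = 0.0894). Ier3, an early-response gene, and Cflar, which encodes the caspase-8 inhibitor FLIP, did not pass. Immediate early and heat shock genes, which respond to tissue handling, summed to 15800 to 18400 CPM in untreated and 17100 to 21300 CPM in healthy animals, with 1 of 22 higher and 7 lower, and their part in these results was not tested.

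**Figure D1:**
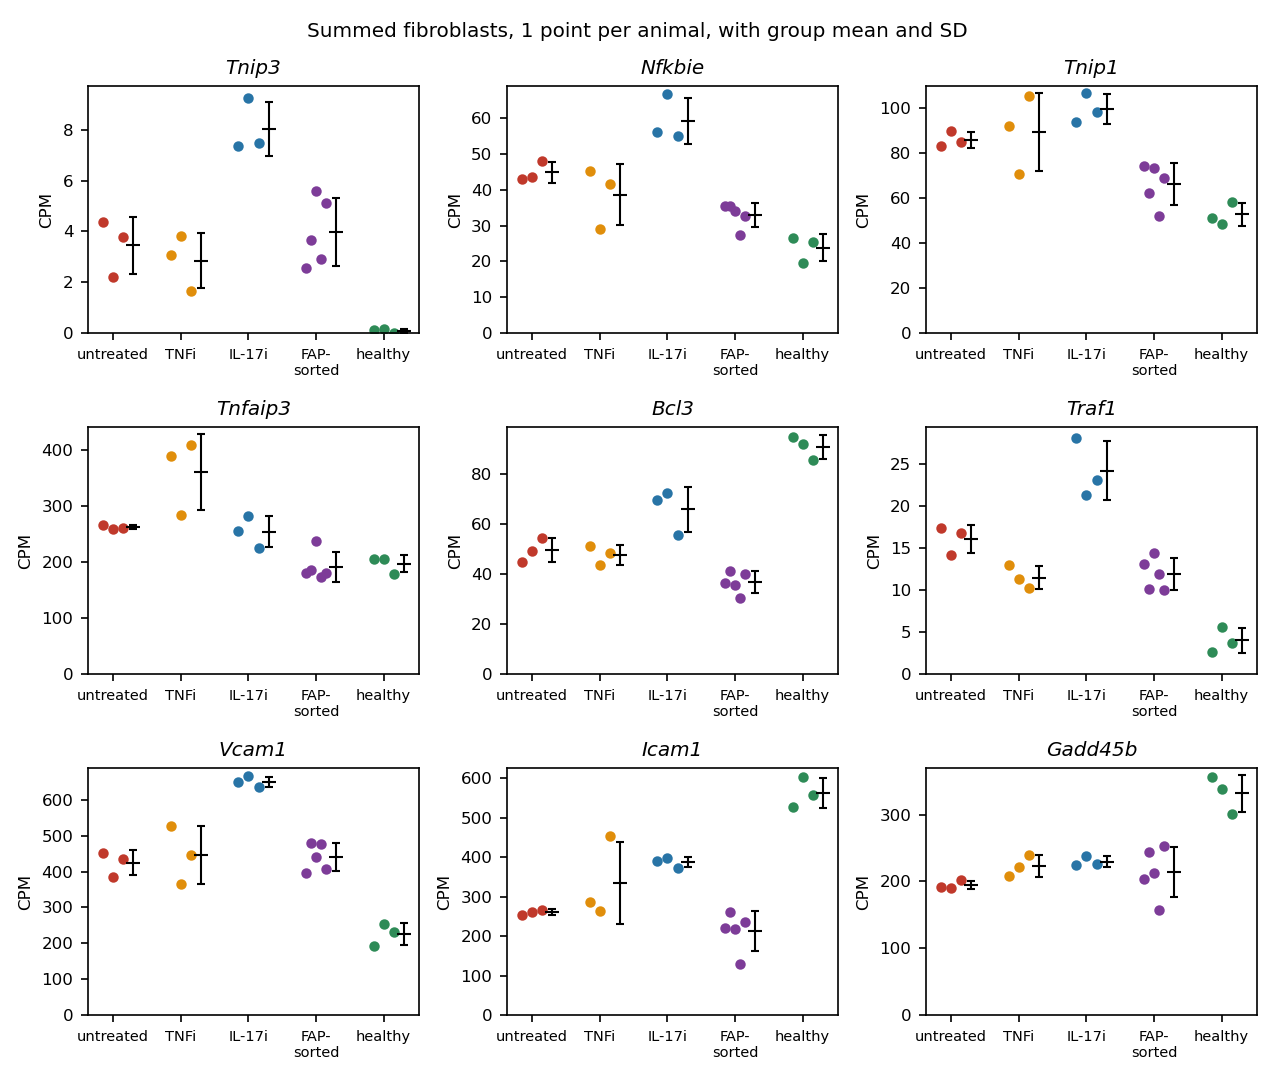
Level of 9 members in summed fibroblasts (CPM, linear axis from 0), 1 point per animal, by group, with the group mean and SD beside the points. Tnip3, Nfkbie, Tnip1, Traf1 and Vcam1 lie higher in the untreated than in the healthy animals with no overlap, Bcl3, Icam1 and Gadd45b lie lower, and the 3 IL-17-inhibited animals have the highest Tnip3, at 7.36 to 9.26 CPM.

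The second question is whether the members differed with inhibition of TNF or IL-17A in animals that were otherwise arthritic. No member passed between TNF-inhibited and untreated fibroblasts in edgeR, against 5.55% of all genes, while 11 members had an unadjusted p under 0.05 and DESeq2 called 5. Tnfaip2 came nearest in edgeR (log2 fold change 0.74 ± 0.21, adjusted p = 0.0583). It was at 848, 740 and 1486 CPM in TNF-inhibited fibroblasts, against 566, 574 and 673 CPM in untreated ones, so the groups did not overlap but the third TNF-inhibited animal stood far above the others. Tnfaip3 was at 389, 284 and 409 CPM in TNF-inhibited fibroblasts, against 267, 259 and 260 CPM in untreated ones (0.44 ± 0.13, adjusted p = 0.0590). Traf1 was at 13.0, 11.3 and 10.2 CPM in TNF-inhibited and 17.4, 14.2 and 16.8 CPM in untreated fibroblasts (−0.49 ± 0.16, adjusted p = 0.0909), and it was still above the healthy range of 2.68 to 5.60 CPM in every TNF-inhibited animal. Il6+ cells were 23.8% to 38.0% of fibroblasts in TNF-inhibited and 42.5% to 50.6% in untreated animals. Muscle markers summed to 93.6 to 134 CPM in TNF-inhibited and 212 to 294 CPM in untreated animals (5 of 8 lower). Keratinocyte markers summed to 58.3 to 83.3 CPM and 33.2 to 36.2 CPM (3 of 7 higher). Of the neutrophil and mural markers 1 of 4 tested and 1 of 8 were lower. The part of these in the results was not tested. TNF-inhibited and healthy fibroblasts differed in 20 members, 12 higher and 8 lower (38.9% of all genes either way), and so did IL-17-inhibited and healthy fibroblasts (35.6%). These comparisons share the untreated or the healthy animals with others given here.

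IL-17 inhibition gave calls in 8 members against untreated fibroblasts, 5 higher (3.8% of all genes) and 3 lower (4.65%). Tnip3 was at 7.36, 9.26 and 7.48 CPM in IL-17-inhibited fibroblasts, against 4.38, 2.22 and 3.77 CPM in untreated ones (log2 fold change 1.26 ± 0.27, adjusted p = 0.0157). Vcam1 was at 649, 665 and 636 CPM in IL-17-inhibited fibroblasts, against 452, 386 and 435 CPM in untreated ones (0.61 ± 0.13, adjusted p = 0.0166). Both genes, already above the healthy animals in untreated arthritis, were farther above them in every IL-17-inhibited animal.

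The other 3 that rose with IL-17 inhibition were Traf1, Icam1 and Bcl3. Traf1 was at 28.1, 21.4 and 23.2 CPM in IL-17-inhibited fibroblasts, against 17.4, 14.2 and 16.8 CPM in untreated ones (0.59 ± 0.16, adjusted p = 0.0363). Icam1 was at 390, 399 and 373 CPM in IL-17-inhibited fibroblasts, against 253, 262 and 267 CPM in untreated ones (0.57 ± 0.15, adjusted p = 0.0389). Bcl3 was at 69.6, 72.4 and 55.8 CPM in IL-17-inhibited fibroblasts, against 45.0, 49.5 and 54.4 CPM in untreated ones (0.41 ± 0.11, adjusted p = 0.0364). Icam1 and Bcl3 in IL-17-inhibited animals lay between the untreated and the healthy values, which were higher in healthy animals.

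The 3 that fell were regulators that restrain inflammation or take part in IL-17 signalling. Irak3, an inactive kinase that restrains Toll-like and IL-1 receptor signalling, was at 75.4, 79.6 and 81.8 CPM in IL-17-inhibited fibroblasts, against 118, 120 and 113 CPM in untreated ones (−0.57 ± 0.12, adjusted p = 0.0137). Zc3h12a, the ribonuclease Regnase-1 that degrades inflammatory transcripts, was at 86.6, 82.9 and 78.7 CPM in IL-17-inhibited fibroblasts, against 100, 106 and 111 CPM in untreated ones (−0.35 ± 0.09, adjusted p = 0.0311). Nfkbiz, which encodes IkB zeta, a nuclear cofactor that IL-17A is known to induce, was at 312, 291 and 278 CPM in IL-17-inhibited fibroblasts, against 367, 364 and 382 CPM in untreated ones (−0.34 ± 0.09, adjusted p = 0.0371). No IL-17-inhibited animal overlapped an untreated one for these 3 genes, which were chosen by their calls in the same values. Rel subunits had no call in either inhibitor group against the untreated one.

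These calls were close to the threshold. Leaving out 1 animal left 0 to 4 of them: Irak3 lost its call without the second untreated animal (adjusted p = 0.0556), Tnip3 and Vcam1 without that animal or the second IL-17-inhibited one (highest adjusted p 0.0699 and 0.0788), and the other 5 without 5 or 6 of the 6 animals (highest adjusted p 0.117 to 0.154). None passed with library as a term, which rests on the single healthy animals, nor in Il6+ cells alone, where Tnip3 was not tested, 8 of 31 members had an unadjusted p under 0.05 and 2.24% of all genes passed. Muscle markers summed to 69.5 to 116 CPM in IL-17-inhibited and 212 to 294 CPM in untreated animals (7 of 8 lower), and keratinocyte markers to 84.2 to 103 CPM and 33.2 to 36.2 CPM (6 of 7 higher). Neutrophil markers other than Lcn2 summed to 24.9 to 29.8 CPM in IL-17-inhibited and 44.2 to 55.1 CPM in untreated animals, with 3 of 4 tested lower when Lcn2 is counted, and leukocyte markers to 29.5 to 88.6 CPM and 23.6 to 27 CPM, of which Cd74 alone passed, higher. Cd74 was at 19.1 to 79.5 CPM in IL-17-inhibited and 2.19 to 8.87 CPM in untreated animals. The median log2 fold change of the 6 leukocyte markers tested was −0.68. Cd200+ cells were 13.2% to 15.9% of fibroblasts in IL-17-inhibited and 4.6% to 7.59% in untreated animals, and Il6+ cells 27.9% to 42.0% and 42.5% to 50.6%. The part of these in the results was not tested.

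IL-17-inhibited and TNF-inhibited fibroblasts differed directly in 11 members, 6 higher (4.54% of all genes) and 5 lower (3.05%) in the IL-17-inhibited animals. Traf1 showed the lowest adjusted p, at 28.1, 21.4 and 23.2 CPM in IL-17-inhibited against 13.0, 11.3 and 10.2 CPM in TNF-inhibited fibroblasts (log2 fold change 1.08 ± 0.16, adjusted p = 0.00241). Tnip3 was higher by 1.44 ± 0.27 (0.00722), while Irak3 was lower by 0.61 on the log2 scale (0.00831) and Zc3h12a by 0.45 (0.00971). These 4 kept their call without any single animal of the 2 groups, in fits that also held untreated and healthy animals. With only the 2 groups in the fit, 2 members in all passed. Bcl3, Nfkbie, Vcam1 and Tnip2 were also higher (0.37 to 0.64), and Ier3, Tnfaip3 and Nfkbiz lower (−0.63 to −0.35), each losing its call without some animals (highest adjusted p 0.0863 to 0.158). With library as a term none of the 11 passed, and in Il6+ cells alone none of the 10 tested there. Neutrophil markers other than Lcn2 summed to 24.9 to 29.8 CPM in IL-17-inhibited and 34.1 to 38.7 CPM in TNF-inhibited animals (Lcn2 and S100a8 lower), mural markers to 128 to 158 CPM and 90.6 to 108 CPM (2 of 8 higher), and leukocyte markers to 29.5 to 88.6 CPM and 18.1 to 30.5 CPM (Cd74 higher). Cd74 was at 19.1 to 79.5 CPM in IL-17-inhibited and 3.39 to 7.73 CPM in TNF-inhibited animals. The median log2 fold change of the 6 leukocyte markers tested was −0.13. The part of all these markers in the results was not tested.

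**Figure D2:**
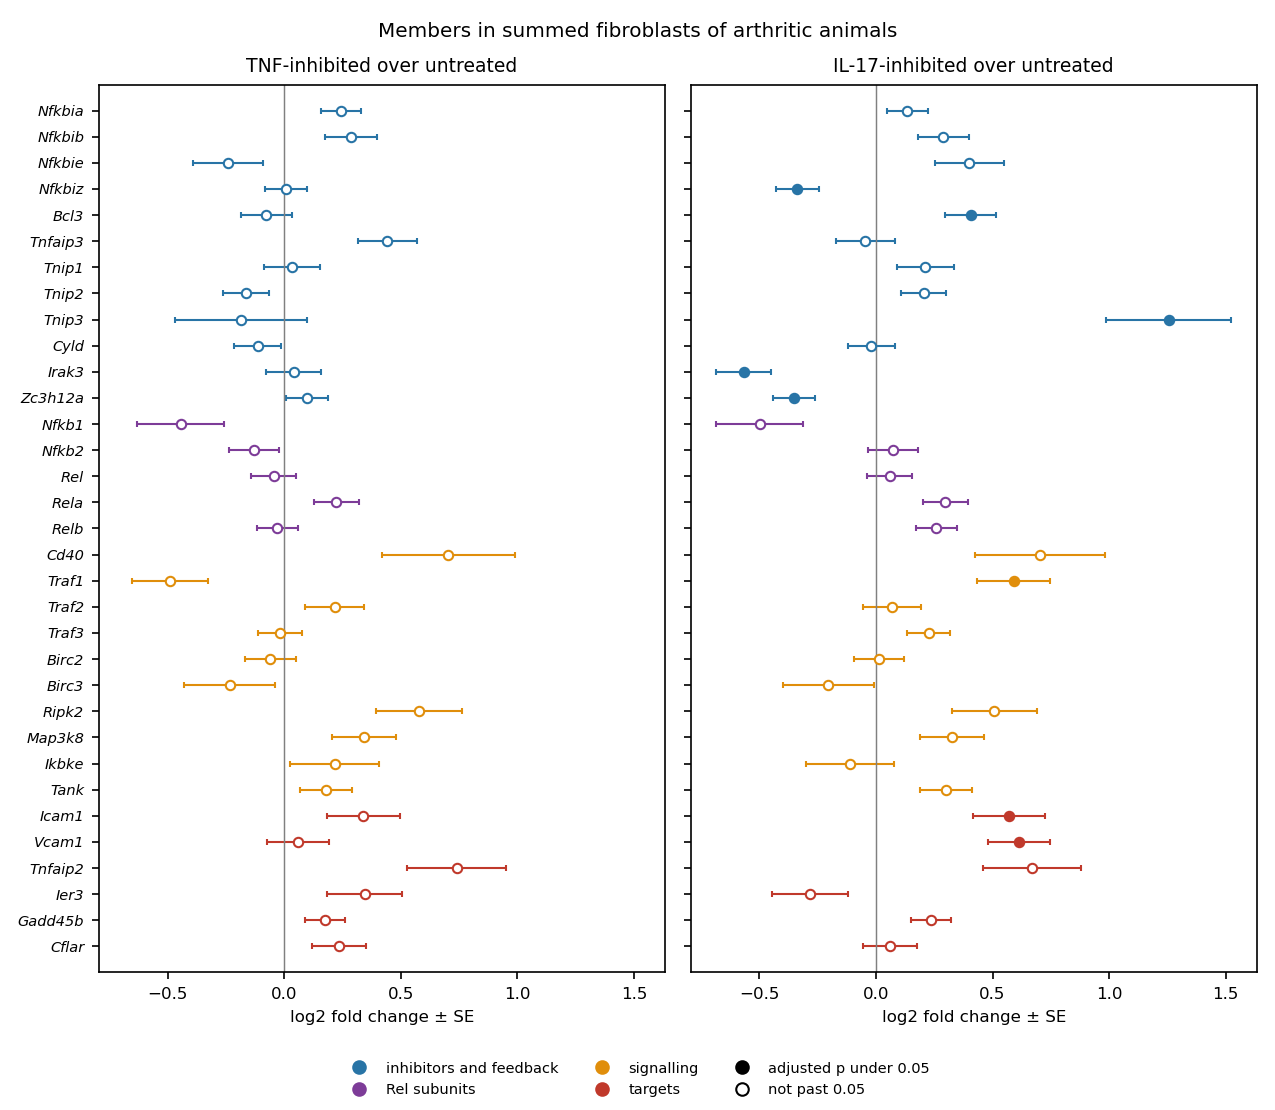
Log2 fold change with SE (horizontal axis) of the 33 members, coloured by role, in TNF-inhibited over untreated fibroblasts on the left and IL-17-inhibited over untreated on the right. Filled points have an edgeR adjusted p under 0.05: none on the left, and 8 on the right, of which Tnip3 is farthest right at 1.26 and Irak3 farthest left at −0.57.

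FAP-sorted arthritic fibroblasts had lower levels of many members than unsorted untreated ones. Of 33 members, 17 were lower and 1 higher, against 21.5% lower and 21.3% higher of all 13418 genes tested, and the median log2 fold change was −0.32 over the members and −0.01 over all genes. The sort and the library are the same split, and cannot be told apart. The deposited stress score averaged 0.16 to 0.40 in FAP-sorted animals and 0.71 to 0.87 in untreated ones, and the mitochondrial share of UMIs was 2.98% to 3.35% and 2.29% to 2.36%. Muscle markers summed to 10.9 to 29.3 CPM in FAP-sorted and 212 to 294 CPM in untreated animals (7 of 8 lower), leukocyte markers to 35.9 to 75.9 CPM and 23.6 to 27 CPM (3 of 6 tested higher), and neutrophil markers other than Lcn2 to 106 to 137 CPM and 44.2 to 55.1 CPM (5 of 6 tested higher with Lcn2 counted). Endothelial markers summed to 7 to 8.54 CPM and 14.7 to 19.6 CPM (4 of 6 tested lower). Keratinocyte markers summed to 19.1 to 29.3 CPM and 33.2 to 36.2 CPM (2 of 4 tested lower), and mural markers to 113 to 131 CPM and 115 to 120 CPM (1 of 7 tested higher, 3 lower). Immediate early and heat shock genes summed to 14300 to 19300 CPM and 15800 to 18400 CPM (2 of 22 higher, 5 lower). The part of these in the result was not tested. Mmp3+ cells were 51.5% to 73.6% of fibroblasts after the sort and 36.1% to 43.0% in untreated animals.

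Among inhibitors and feedback regulators, 6 of 12 were lower in FAP-sorted fibroblasts. Zc3h12a was at 74.8, 67.0, 55.7, 46.3 and 65.7 CPM in FAP-sorted animals, against 100, 106 and 111 CPM in untreated ones (log2 fold change −0.80 ± 0.13, adjusted p = 0.00110). The FAP-sorted animals all lay below the untreated ones. Nfkbie (−0.47), Tnfaip3 (−0.48), Irak3 (−0.51), Bcl3 (−0.46) and Tnip1 (−0.40) were also lower, with adjusted p of 0.00256 to 0.0123. Nfkbia did not pass and differed by 0.07 ± 0.06.

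Of 5 Rel subunits, 3 were lower after the sort. Rel was at 45.9, 49.5, 41.8, 32.6 and 41.7 CPM in FAP-sorted animals, against 65.8, 60.2 and 65.5 CPM in untreated ones (−0.62 ± 0.11, adjusted p = 0.00206). Rela fell by 0.37 ± 0.07 (0.00283) and Nfkb1 by 0.40 ± 0.10 (0.00742), and the 2 sets of animals did not overlap for any of these 3 genes. Of 10 signalling genes, 6 were lower, of which Birc3, a ubiquitin ligase closely related to Birc2, changed most, at 58.6, 89.1, 68.9, 66.1 and 75.3 CPM in FAP-sorted animals against 106, 107 and 110 CPM in untreated ones (−0.62 ± 0.11, adjusted p = 0.00199). Birc2, Tank, Traf1, Ripk2 and Map3k8 were lower by 0.27 to 0.53 on the log2 scale. Ikbke, a kinase related to IKK, was the one member higher, at 6.72, 6.37, 6.54, 7.67 and 7.10 CPM in FAP-sorted against 5.79, 4.86 and 4.04 CPM in untreated animals (0.50 ± 0.13, adjusted p = 0.0116).

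Among the targets, Tnfaip2 and Cflar were lower. Tnfaip2 was at 306, 343, 276, 213 and 288 CPM in FAP-sorted animals, against 566, 574 and 673 CPM in untreated ones, with no overlap (−1.11 ± 0.13, adjusted p = 0.000260). Cflar was lower by 0.26 (0.0276). Vcam1 (0.03 ± 0.09), Icam1 (−0.32 ± 0.18), Gadd45b and Ier3 did not pass. Cflar, Ikbke, Map3k8, Ripk2 and Traf1 each lost significance when 1 to 4 of the 8 animals were left out singly (highest adjusted p 0.0629 to 0.153), and the other 13 kept it. In Il6+ cells alone 9 of 31 members passed, all of them lower, against 25.6% of all genes in either direction and 12.2% lower. Tnfaip2 was at −0.94 ± 0.13 (adjusted p = 0.000411) in Il6+ cells and Zc3h12a at −0.68 ± 0.11 (0.00107). Of the other 2 Rel subunits called in the sums, Rela was at −0.11 (0.353) and Nfkb1 at −0.14 (0.287) in Il6+ cells, and Traf1 changed sign there, at 0.19 (0.731). Il6+ cells were 12% to 24.5% of fibroblasts in FAP-sorted and 42.5% to 50.6% in untreated animals. In Mmp3+ cells 15 of 32 members were lower (18.5% of all genes) and 1 higher (19.2%). Lining cells gave 3 calls of 29 (8.44% of all genes) and Pi16+ cells 4 of 27 (6.86%). No member passed in Cd200+ cells (2.85%) or chondrocytes (2.54%).

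**Figure D3:**
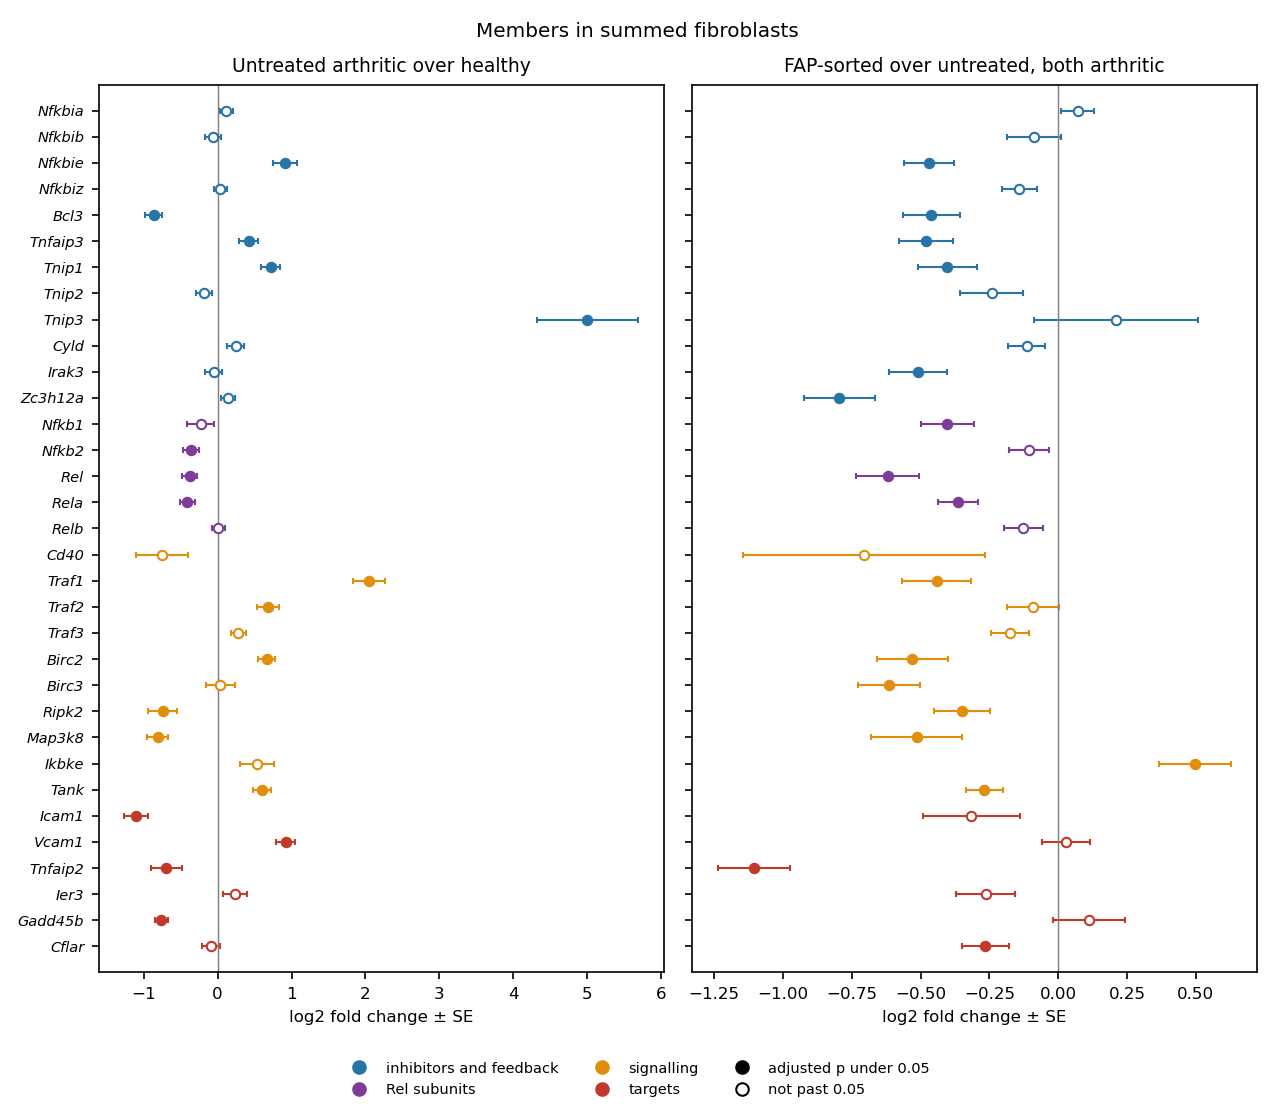
Log2 fold change with SE (horizontal axis) of the 33 members, coloured by role, in untreated over healthy fibroblasts on the left and in FAP-sorted over untreated fibroblasts on the right. Filled points have an edgeR adjusted p under 0.05; on the left they lie on both sides of 0 (9 higher, 9 lower), and on the right 17 of 18 lie below 0. The Tnip3 point on the left rests on 2 UMIs in healthy animals, and its fitted position is no bound.

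Within classes, the disease comparison gave different members. Untreated and healthy animals differed in 12 of 31 members in lining cells (13.2% of all genes), 5 of 33 in Mmp3+ cells (6.84%), 4 of 31 in Il6+ cells, 2 of 30 in Cd200+ cells (4.27%), 1 of 27 in Pi16+ cells (3.43%), 7 of 30 in chondrocytes (12.9%) and 9 of 30 in osteoblasts (8.93%). Cell numbers were low in places, at 23 to 49 lining, 16 to 24 Mmp3+ and 15 to 32 osteoblast cells per healthy animal, and 11 to 24 Pi16+ cells per untreated animal. Levels within classes are on 1 scaling over all sums of a class and animal, and fold changes on the scaling of the class.

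In lining cells, the layer facing the joint cavity, 4 inhibitors and feedback regulators rose and 1 fell. Irak3 was at 100, 139 and 126 CPM in untreated lining cells, against 46.4, 42.1 and 24.0 CPM in healthy ones (log2 fold change 1.64 ± 0.25, adjusted p = 0.000302). Nfkbiz was at 310, 327 and 325 CPM in untreated and 214, 214 and 192 CPM in healthy lining cells (0.64 ± 0.13, adjusted p = 0.00270). Bcl3 was at 41.7, 47.7 and 45.1 CPM in untreated and 112, 110 and 139 CPM in healthy lining cells (−1.37 ± 0.16, adjusted p = 1.85e-05). None of these overlapped between groups. Tnfaip2 was at 472, 532 and 565 CPM in untreated and 1450, 1370 and 1430 CPM in healthy lining cells (−1.42 ± 0.26, adjusted p = 0.00143), Tank rose by 1.15 ± 0.21 (0.00144) and Gadd45b fell by 1.10 ± 0.21 (0.00200). These 6 kept their calls without any single animal. Icam1 (−1.19), Traf1 (1.18), Zc3h12a (0.71), Birc2 (1.00), Vcam1 (1.10) and Tnip1 (0.63) passed but lost the call without 1 to 5 of the 6 animals (highest adjusted p 0.0550 to 0.154), Icam1 without the second untreated animal and Traf1 without the healthy animal of the untreated library.

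In Mmp3+ cells, Vcam1 was at 408, 428 and 474 CPM in untreated animals, against 129, 106 and 142 CPM in healthy ones (log2 fold change 1.89 ± 0.19, adjusted p = 5.10e-05). Tnfaip3 rose by 1.10 ± 0.25 (0.0145), and both kept their calls without any single animal. Nfkbiz (0.97), Traf1 (2.40) and Gadd45b (−0.96) passed but lost the call without 1, 4 and 5 of the 6 animals (highest adjusted p 0.0525, 0.169 and 0.237), Nfkbiz without the healthy animal of the untreated library. Traf1 rested on 3 UMIs in all healthy Mmp3+ cells.

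In Il6+ cells Icam1 was at 379, 422 and 459 CPM in untreated animals, against 766, 1030 and 968 CPM in healthy ones (−1.10 ± 0.14, adjusted p = 0.000328). Icam1 and Rela kept their calls in Il6+ cells without any single animal, and Nfkb2 and Nfkbie lost theirs without any 1 of 3 (highest adjusted p 0.0660 and 0.133). Icam1 was lower in Cd200+ cells too (−0.81 ± 0.13, 0.00171) and in chondrocytes (−0.87 ± 0.16, 0.00285), and its sign was negative in each of the 5 fibroblast classes (−1.19 to −0.23). Tnfaip3 rose in Cd200+ cells by 1.06 ± 0.20 (0.00445). Irak3 passed in Pi16+ cells (0.85 ± 0.21, 0.0458), a call lost without any 1 of the 6 animals (highest adjusted p = 0.189).

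Vcam1, which rose in lining and Mmp3+ cells, was also higher in untreated than in healthy chondrocytes but lower in untreated osteoblasts. In chondrocytes it was at 459, 296 and 713 CPM in untreated animals, against 67.7, 141 and 99.5 CPM in healthy ones (log2 fold change 2.28 ± 0.34, adjusted p = 0.000513). In osteoblasts, which form bone, it was at 241, 321 and 308 CPM in untreated animals, against 673, 753 and 956 CPM in healthy ones (−1.46 ± 0.20, adjusted p = 0.000255). Both calls held without any single animal; the difference between the 2 classes was not tested. Osteoblasts also had lower Gadd45b (−1.60 ± 0.19, 5.03e-05) and Tnfaip2 (−2.04 ± 0.31, 0.000478) in untreated than in healthy animals, and chondrocytes lower Gadd45b (−1.08 ± 0.19, 0.00150) and Rela (−0.70 ± 0.15, 0.00525). Of the 9 osteoblast calls, 8 were lower in untreated animals and 1, among the inhibitors and feedback regulators, was higher. Other calls were less stable: in chondrocytes Ripk2 (−1.52), Nfkbie (1.16) and Map3k8 (−1.02) lost theirs without 1 to 3 of the 6 animals (highest adjusted p 0.0714 to 0.154), and in osteoblasts Bcl3 (−1.30), Cflar (−1.16), Rel (−1.02), Nfkbia (−0.52) and Map3k8 (−1.28) without 1 to 5. Nfkbie, Bcl3 and Cflar each lost theirs without the healthy animal of the IL-17-inhibited library (adjusted p 0.0782, 0.0940 and 0.0923).

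**Figure D4:**
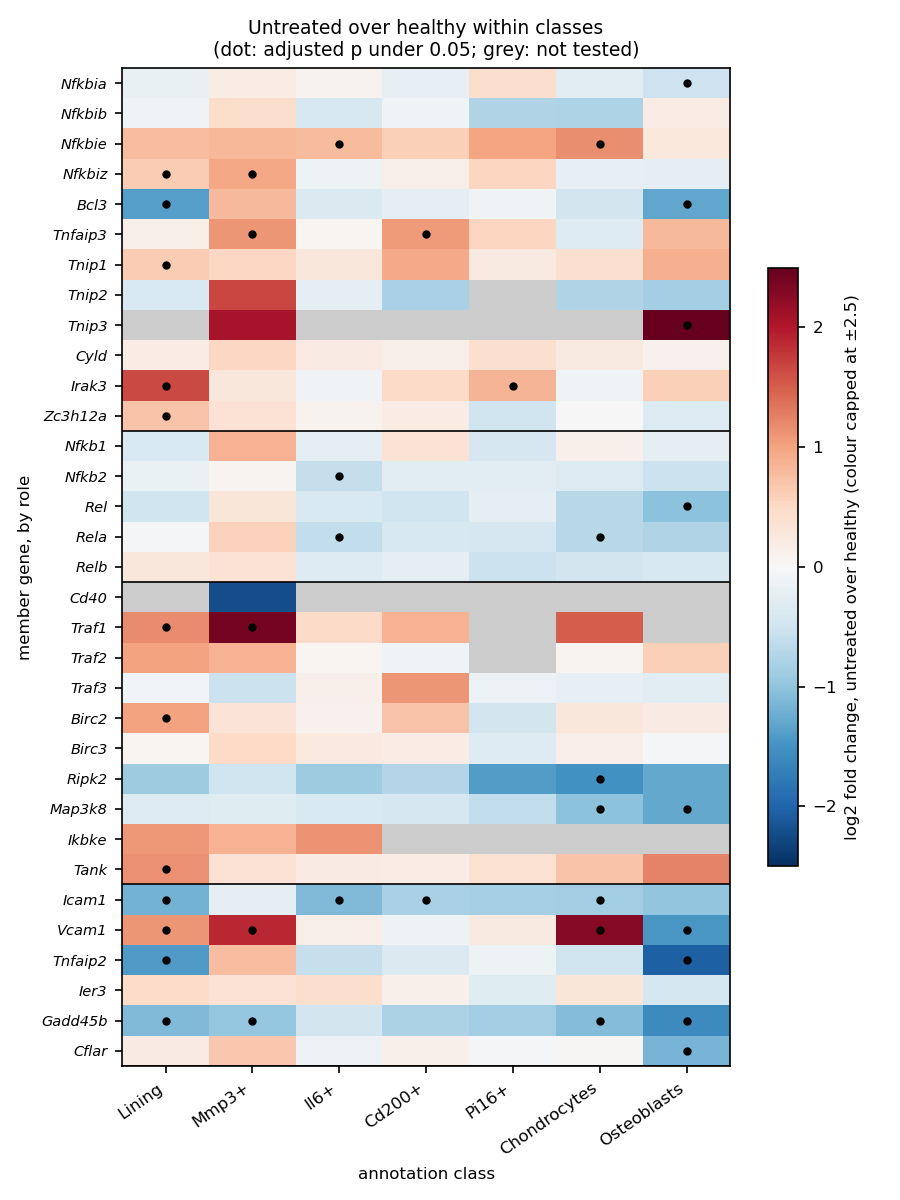
Log2 fold change of untreated over healthy animals (colour, red for higher in untreated, blue for lower, capped at ±2.5) for the 33 members (rows, by role) in the 7 annotation classes (columns). Dots have an edgeR adjusted p under 0.05 and grey cells were not tested. Nfkbie is above 0 and Icam1 below 0 in each fibroblast class, while Bcl3 is −1.37 in lining cells and above 0 in Mmp3+ cells, and Vcam1 is 2.28 in chondrocytes and −1.46 in osteoblasts.

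Whether the disease difference itself varied between the 5 fibroblast classes was tested by an interaction of class and disease. It passed for 9 of 31 members (8.96% of all genes): Tnfaip2 (adjusted p = 3.934e-05), Irak3 (0.001097), Bcl3 (0.001131), Rela (0.002018), Nfkbiz (0.002331), Nfkb1 (0.003513), Zc3h12a (0.004834), Tnfaip3 (0.01192) and Vcam1 (0.0176). Tnfaip2 was −1.42 in lining and −0.58 in Il6+ cells but 0.78 in Mmp3+ cells, where it was at 438, 453 and 499 CPM in untreated animals, against 285, 238 and 336 CPM in healthy ones. Irak3 was 1.64 in lining cells and −0.09 in Il6+ cells. Without the Mmp3+ class, which held few healthy cells, 6 of the 9 passed, and Vcam1 (adjusted p = 0.353), Rela (0.179) and Nfkb1 (0.0619) did not. Tnfaip3, Zc3h12a and Vcam1 lost the call without either of 2 animals (highest adjusted p 0.0716, 0.0663 and 0.211).

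**Figure D5:**
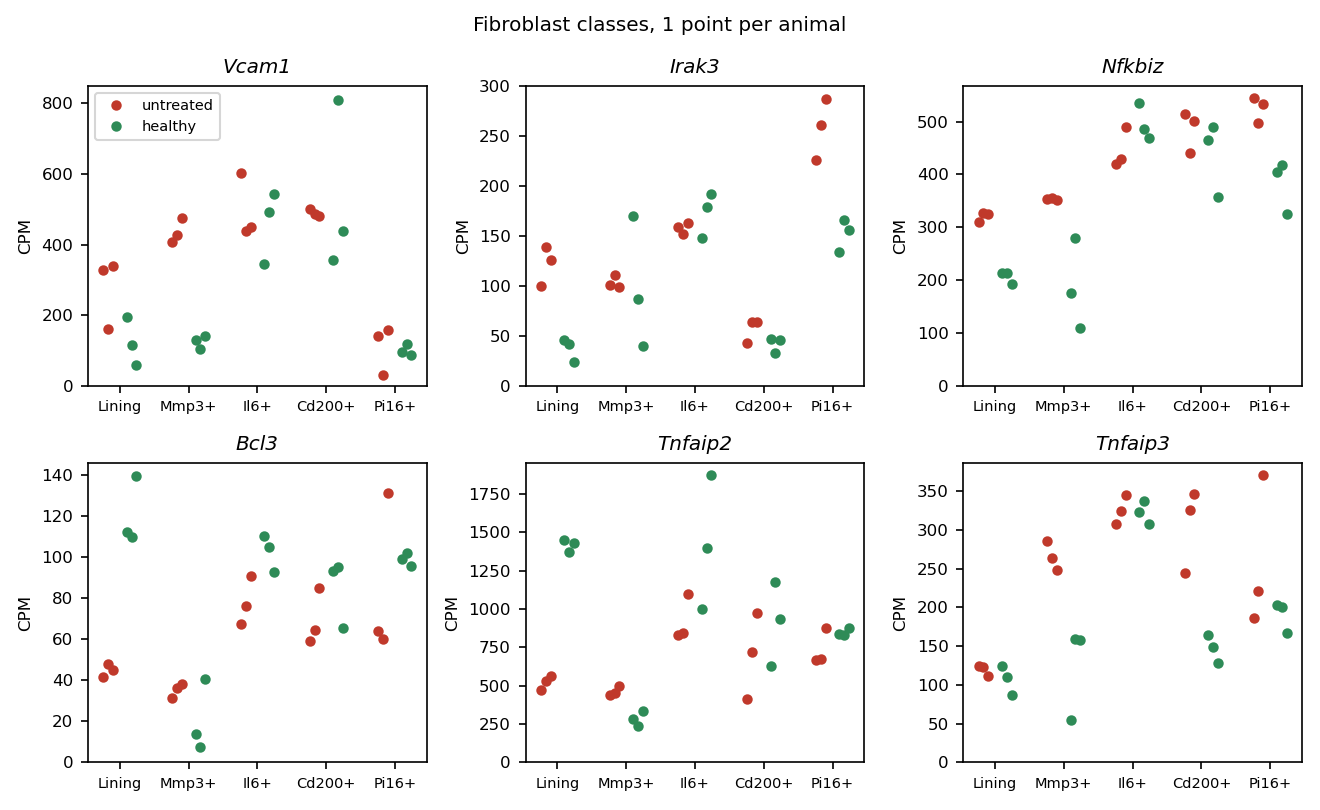
Level of 6 members (CPM, linear axis from 0) in the 5 fibroblast classes, 1 point per animal, untreated in red to the left of healthy in green. Irak3 and Nfkbiz lie higher and Bcl3 and Tnfaip2 lower in untreated than in healthy lining cells, whereas the points of Bcl3 and Tnfaip2 in Pi16+ cells overlap.

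Within classes, the inhibitors gave few calls. For IL-17 inhibition, 5 of 33 members passed in Mmp3+ cells (6.41% of all genes), 1 in lining cells (0.495%) and 1 in osteoblasts (0.594%). None passed in Il6+, Cd200+ (1.48%) or Pi16+ cells (0.307%) or in chondrocytes (0.234%) in edgeR, where 6 to 9 members had an unadjusted p under 0.05. In Mmp3+ cells Tnip3 was at 13.9, 20.2 and 12.7 CPM in IL-17-inhibited animals, against 8.01, 4.23 and 6.56 CPM in untreated ones (log2 fold change 1.37 ± 0.25, adjusted p = 0.00599), with no overlap and a call that held without any single animal. Vcam1 (0.64), Irak3 (−0.83), Traf1 (0.57) and Icam1 (0.79) passed there but lost the call without 4 to 6 of the 6 animals (highest adjusted p 0.102 to 0.185). In lining cells Bcl3 was at 92.8, 84.9 and 70.4 CPM in IL-17-inhibited animals, against 41.7, 47.7 and 45.1 CPM in untreated ones (0.86 ± 0.14, adjusted p = 0.0337), with no overlap, a call lost without any 1 of 5 of the 6 animals (highest 0.120). In osteoblasts Vcam1 was at 740, 716 and 513 CPM in IL-17-inhibited animals, against 241, 321 and 308 CPM in untreated ones (1.16 ± 0.19, adjusted p = 0.0103), with no overlap, a call lost without either of 2 animals (highest 0.0560). The interaction of class and IL-17 inhibition passed for Zc3h12a alone (adjusted p = 0.02647, 0.496% of all genes), and that call was lost without any 1 of 4 of the 6 animals (highest 0.248). Zc3h12a was at 76.6, 57.3 and 61.1 CPM in IL-17-inhibited and 82.6, 96.3 and 101 CPM in untreated Mmp3+ cells, and at 147, 139 and 124 CPM in IL-17-inhibited and 139, 145 and 154 CPM in untreated Il6+ cells.

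For TNF inhibition, 3 of 31 members passed in lining cells (1.33% of all genes), 2 of 33 in Mmp3+ cells (2.33%), and 4 of 30 in osteoblasts (1.26%). None passed in Il6+ cells (0.254%), Cd200+ cells (1.07%) or chondrocytes (0%) in edgeR, where 5 to 7 members had an unadjusted p under 0.05. Pi16+ cells were too few in TNF-inhibited animals to compare. In lining cells Tnfaip3 (0.81), Tnfaip2 (1.14) and Zc3h12a (0.71) were higher in TNF-inhibited animals, and in Mmp3+ cells Tnfaip2 was higher (0.92) and Traf1 lower (−0.69). In osteoblasts Vcam1 (0.99), Gadd45b (0.84) and Nfkbia (0.60) were higher and Tnip3 lower. Each of these calls but that of Tnip3 was lost without 3 to 6 of the 6 animals (highest adjusted p 0.0881 to 0.189). The interaction of class and TNF inhibition passed for no member in edgeR (0.317% of all genes), and 6 had an unadjusted p under 0.05.

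Under TNF inhibition, Tnip3 in osteoblasts was the one of these 9 class calls that held when any single animal was left out. It was at 3.95, 4.64 and 3.23 CPM in osteoblasts of TNF-inhibited animals, against 45.7, 51.9 and 31.0 CPM in untreated ones, and at 42.8, 24.2 and 32.8 CPM in IL-17-inhibited ones. The TNF-inhibited animals lay far below both other arthritic groups with no overlap. They held 12 UMIs of Tnip3 in all, against 134 in untreated animals, a ratio of 0.0866 with a 95% counting interval of 0.0437 to 0.156 (log2 fold change −3.39 ± 0.45, adjusted p = 0.00407), and the highest adjusted p without a single animal was 0.0345. Untreated against healthy osteoblasts gave 134 UMIs against 3, a ratio of 12 with an interval of 4.03 to 59.0, and the healthy animals were at 0, 11.1 and 0 CPM. The osteoblasts numbered 51 to 89 in TNF-inhibited, 15 to 66 in untreated and 15 to 32 in healthy animals. FAP-sorted osteoblasts were at 9.78, 8.81, 18.3, 1.74 and 4.66 CPM, below the untreated ones (−2.47 ± 0.43, adjusted p = 0.0116, 1.05% of all genes).

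Across the fibroblast classes of untreated animals Tnip3 averaged 6.27 CPM in Mmp3+ cells and 2.22 CPM in lining cells, and 0.28, 0.22 and 0 CPM in Il6+, Cd200+ and Pi16+ cells. Traf1 averaged 30.3 CPM in lining cells and 22.8 CPM in Mmp3+ cells, and 2.68 to 5.64 CPM in the other fibroblast classes. Nfkb1 was highest in Il6+ cells, at 918 CPM against 257 CPM in lining cells, and Irak3 in Pi16+ cells, at 258 CPM against 56.9 CPM in Cd200+ cells. These levels describe classes that the authors made from the same cells and were not tested.

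Other genes of the pathway, 36 receptors, adaptors, kinases and ubiquitin enzymes upstream, were read for context, and 35 were tested. Between untreated and healthy fibroblasts 3 rose, 5 fell and 27 did not pass, against 14.4% higher and 14.3% lower of all genes. Those that rose were the receptors Tnfrsf1b (0.46 ± 0.12, adjusted p = 0.0103) and Il1r1 (0.54 ± 0.10, 0.00170) and the regulator Commd1 (0.28 ± 0.10, 0.0399). Those that fell were the kinases Ripk1 (−0.70 ± 0.11, 0.000259) and Irak1 (−0.42 ± 0.07, 0.000846), the adaptors Myd88 (−0.92 ± 0.17, 0.00106) and Traf5 (−1.0 ± 0.25, 0.00813), and the TWEAK receptor Tnfrsf12a (−0.50 ± 0.14, 0.0150). Against untreated animals, Tnfrsf1b was higher with TNF inhibition (0.53 ± 0.11, 0.0222) and Il1r1 and Ripk1 lower (−0.41 and −0.47). Of all genes 2.53% were higher and 3.02% lower there. With IL-17 inhibition the atypical IkB gene Nfkbid was higher than in untreated animals (1.84 ± 0.42, 0.0198). Il1r1 (−0.63 ± 0.10, 0.00476) and Tax1bp1 (−0.30) were lower, against 3.8% higher and 4.65% lower of all genes. FAP-sorted fibroblasts had 13 of 35 lower and 4 higher than untreated ones, against 21.5% lower and 21.3% higher of all genes.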

How the data were processed

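Per the labels' protocols, hashtagged cells of several animals were pooled and sequenced with 10x Genomics 3' chemistry. The deposited matrices held raw counts of UMIs, not normalized, made, per the file headers, with Cell Ranger 6.0.0 (unsorted libraries) or 5.0.0 (FAP-sorted). Version 6.0.6 and mm10 stand in the submitters' processing notes. A deposited annotation gave library, hashtag and class for 24227 of 47658 barcodes, with a deposited stress score whose genes are not given and a mitochondrial fraction of UMIs computed by the authors; filters on cells and the treatment of doublets are not given in the sources used here. Libraries shared 32 to 51 barcodes pairwise, so cells were matched by library and barcode.

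The sums of raw counts per animal went into the quasi-likelihood test of edgeR 4.0.16 in R 4.3.3, after TMM scaling and filterByExpr, with Benjamini-Hochberg adjustment over all genes and a threshold of 0.05. The fit held 12 animals with group as the only term, or 8 for the FAP-sorted comparison. The comparison of all arthritic with healthy animals had library as a further term, and interactions were fitted over sums per class and animal with animal and class as terms. Class fits used animals with at least 10 cells and groups with at least 2 animals. CPM uses TMM-scaled library sizes. SE is the absolute log2 fold change over the square root of F. Counting intervals are exact binomial (95%) and cover counting error only. DESeq2 1.42.0 was an alternative. Hashtag numbers did not pair animals. Whether counting used strand is not given, and Nfkbib, Bcl3, Irak3, Nfkb2, Traf3, Ikbke, Icam1, Vcam1 and Tnfaip2 overlap antisense genes.

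In the healthy animals, 9.93% to 34.85% of fibroblasts had most raw hashtag counts on their annotated hashtag. With the log counts of each hashtag centred over all barcodes, 100.0% had it highest in each of these animals. In addition, 24 to 147 cells per healthy animal held a sex-chromosome UMI against the majority. Whether any cell was assigned to the wrong animal was not tested. The members and gene lists were chosen with earlier results of these data known. Values were given for members past the threshold, at most 12 per comparison by adjusted p and at least 1 per role.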

Additional observations from a re-analysis of the deposited data

Results flagged for a closer look

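Among 33 members in the 5 FAP-sorted animals, 2 had 1 animal far from the others, and chance gives about 1 in 20. FAP-sorted animal 3 had the highest Tnfaip3, at 237 CPM against 172 to 185 CPM in the other 4, and the highest Cyld, a deubiquitinase, at 23.0 CPM against 20.0 to 20.8 CPM.

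The difference between untreated and healthy animals itself differed between fibroblast classes for 9 members, with interaction adjusted p of 3.934e-05 for Tnfaip2, 0.001097 for Irak3, 0.001131 for Bcl3, 0.002018 for Rela, 0.002331 for Nfkbiz, 0.003513 for Nfkb1, 0.004834 for Zc3h12a, 0.01192 for Tnfaip3 and 0.0176 for Vcam1. The difference between IL-17-inhibited and untreated animals differed between classes for Zc3h12a (0.02647).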

How the results depend on the processing

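Counts of members called changed most with the class mix and with library. In Il6+ cells alone they were 4 for untreated against healthy, 7 for TNF-inhibited against healthy, 5 for IL-17-inhibited against healthy, 8 for arthritic against healthy within library, 9 for FAP-sorted against untreated and 0 for IL-17-inhibited against untreated or TNF-inhibited. Birc2 changed sign there in TNF-inhibited (-0.0667) and IL-17-inhibited (-0.0195) against healthy cells, and Traf1 in FAP-sorted against untreated cells (0.19). With library as a term, 0 members passed for IL-17-inhibited against untreated or TNF-inhibited, 11 for each inhibitor group and 12 for the untreated group against healthy. With the healthy animal of the same library alone, 13 passed for untreated, 11 for TNF-inhibited and 10 for IL-17-inhibited against healthy. For TNF-inhibited against untreated, DESeq2 called 5 and edgeR without a filter on low counts 3. With only the 2 groups in the fit, 17 members passed for IL-17-inhibited against untreated and 2 for IL-17-inhibited against TNF-inhibited. The cause of these shifts was not tested. In all, 68 alternative counts lay within 1.5 times the reported ones, with 0 against 0 taken as equal, and 20 did not. The 68 included those without healthy cells that held a sex-chromosome UMI against the majority of the animal. They also included, for the disease interaction, the count without the Mmp3+ class. Without those healthy cells Ikbke lost its call for arthritic against healthy within library and Tnip2 for TNF-inhibited against healthy. These 2 alternatives, and all alternatives to the fits within classes, were chosen after seeing the data.

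Animals with the same hashtag number did not deviate together (correlations -0.165 to 0.156), so they share a number only. With the replicate block, 1 member passed for TNF-inhibited against untreated, 4 for IL-17-inhibited against untreated, 7 for IL-17-inhibited against TNF-inhibited and 16 for FAP-sorted against untreated.

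Leaving out 1 animal at a time gave 14 to 17 members for untreated, 19 to 22 for TNF-inhibited and 15 to 18 for IL-17-inhibited against healthy, 16 to 23 for arthritic against healthy, 0 to 2 for TNF-inhibited and 0 to 4 for IL-17-inhibited against untreated, 5 to 9 for IL-17-inhibited against TNF-inhibited and 14 to 20 for FAP-sorted against untreated. For untreated against healthy within classes it gave 9 to 10 in lining, 3 to 6 in Mmp3+, 2 to 5 in Il6+, 2 to 3 in Cd200+, 0 in Pi16+ cells, 6 to 7 in chondrocytes and 4 to 9 in osteoblasts. For TNF-inhibited against untreated it gave 0 to 2 in lining and in Mmp3+ cells, 0 to 1 in Cd200+ cells and 1 to 3 in osteoblasts, and for IL-17-inhibited against untreated 0 to 1 in lining, 1 to 3 in Mmp3+ cells and 0 to 2 in osteoblasts. The class interactions gave 7 to 11 for disease and 0 to 1 for each inhibitor. Depth limits the members near 1 CPM, such as Cd40 and Tnip3 in healthy animals.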
